A study of Homo sapiens with 4 samples.

Results

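The strongest constitutive accessible sites of ME-1 cells were the stretches of open chromatin that ranked in the top 5% of peaks in every one of 4 ATAC-seq libraries, with and without drug. They were chosen from the deposited peak lists: overlapping autosomal peaks of the 4 lists were merged into 100497 regions, and a region was kept when its highest peak stood at or above the 95th percentile of its own list in all 4 lists. The ranking used the −log10 p that the peak caller gave each peak. Of 28368 regions found in all 4 lists, 1137 passed. Leaving out 103 that lay within 5 Mb of a centromere left 1034 sites, which are 1.03% of the merged regions and 3.87% of the 26744 regions that were found in all 4 lists away from centromeres. The remaining 25710 of those regions are called the other shared sites.

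ME-1 is a human cell line from an acute myeloid leukaemia. Its inv(16) inversion joins CBFB and MYH11, and the joined gene encodes CBFβ-SMMHC. All libraries came from this 1 line and carry the fusion. Cells received AI-10-49 at 1 µM or DMSO, the vehicle, for 6 h, with 2 libraries per group. AI-10-49 is a small molecule that binds CBFβ-SMMHC and blocks its contact with the transcription factor RUNX1. No untreated cells and no cells without the fusion were analysed here, and nothing in the labels says whether replicates were separate cultures, so a p-value measures only the spread between these libraries.

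In ATAC-seq, a transposase cuts and tags DNA that is not wrapped in nucleosomes, so a peak marks DNA open to proteins. The most open DNA of a cell is generally found at promoters of genes in constant use, where bound factors hold nucleosomes aside, and at insulator sites bound by CTCF. Copies of mitochondrial DNA within the nuclear genome and collapsed repeats can also collect very many reads, because reads from many copies map to them.

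The labelled cell type was checked at gene starts. Of 8 blood and myeloid marker genes, SPI1 and KIT lie within 5 Mb of a centromere and were not looked at. The other 6, PTPRC, LAPTM5, MPO, CORO1A, CEBPA and CD34, all had an accessible region of at least 1 list within 5 kb, and the first 3 had one in all 4 lists. Markers of other blood lineages were also open, with regions at CD79A, GATA3, EPOR and ITGA2B in all 4 lists, while the B cell genes PAX5 and EBF1 had none in any list. Markers of tissues other than blood were mixed. A region of at least 1 list was present at 4 of 5 nerve and eye markers (GFAP in all 4 lists), at 2 of 4 liver markers (APOA1 in all 4 lists) and at the fibroblast marker COL1A1 and the vessel marker CDH5. None was found at the skin markers KRT5 and KRT14, the muscle and heart markers TNNT2 and MYOD1 or the pancreas marker INS, and MYH7 lies within 5 Mb of a centromere. Open starts thus did not set the labelled cell type apart from every other. No marker of any cell type looked at had one of the strongest sites near its start. Few markers had a region in all 4 lists, and only 3.87% of such regions were among the strongest, so nothing is read from this absence.

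Because many of the highest sites lay at gene starts, the promoters of 5 genes show what their DNA looks like. They are MSANTD4, AASDHPPT, STT3A and HSF2, among the highest-placed sites with a promoter in the table used, and HSPA8, the highest-placed gene of the listed ones. Each runs 5′ to 3′ along the gene from 250 bases before the start to 50 after it, as RefSeq gives it on GRCh38.p14: chr11:106022191-106022490 on the minus strand, chr11:106077412-106077711 on the plus strand, chr11:125592602-125592901 on the plus strand, chr6:122399301-122399600 on the plus strand and chr11:123062087-123062386 on the minus strand. Capitals mark 4 motifs read on either strand: the CCAAT box (CCAAT or ATTGG), the GC box (GGGCGG or CCGCCC), the ETS core (CCGGAA or TTCCGG) and the cAMP response element (TGACGTCA, which reads the same on both strands). The peaks below are on hg19, so their coordinates do not compare with these.
MSANTD4: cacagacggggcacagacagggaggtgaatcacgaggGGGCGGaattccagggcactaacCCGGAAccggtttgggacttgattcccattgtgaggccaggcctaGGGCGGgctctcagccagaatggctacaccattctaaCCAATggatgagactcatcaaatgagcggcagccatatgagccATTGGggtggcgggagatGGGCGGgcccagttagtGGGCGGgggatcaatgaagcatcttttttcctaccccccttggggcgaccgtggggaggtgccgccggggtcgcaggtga
AASDHPPT: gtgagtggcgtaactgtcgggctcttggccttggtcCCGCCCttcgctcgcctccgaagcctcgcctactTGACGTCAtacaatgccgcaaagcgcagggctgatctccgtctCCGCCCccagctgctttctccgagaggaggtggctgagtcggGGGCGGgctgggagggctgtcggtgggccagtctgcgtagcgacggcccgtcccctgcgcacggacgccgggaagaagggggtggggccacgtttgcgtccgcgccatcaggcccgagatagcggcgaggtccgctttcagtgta
STT3A: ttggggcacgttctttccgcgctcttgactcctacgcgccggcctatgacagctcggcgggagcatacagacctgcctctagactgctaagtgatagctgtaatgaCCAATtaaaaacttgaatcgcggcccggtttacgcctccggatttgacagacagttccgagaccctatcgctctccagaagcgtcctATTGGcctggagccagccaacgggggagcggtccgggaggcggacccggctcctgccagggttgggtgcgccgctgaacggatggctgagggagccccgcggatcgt
HSF2: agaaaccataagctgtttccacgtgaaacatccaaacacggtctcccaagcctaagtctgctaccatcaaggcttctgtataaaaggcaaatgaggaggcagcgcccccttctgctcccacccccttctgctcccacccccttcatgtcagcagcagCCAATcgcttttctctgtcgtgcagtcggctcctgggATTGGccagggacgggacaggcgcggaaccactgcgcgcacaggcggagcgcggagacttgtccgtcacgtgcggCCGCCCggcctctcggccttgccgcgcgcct
HSPA8: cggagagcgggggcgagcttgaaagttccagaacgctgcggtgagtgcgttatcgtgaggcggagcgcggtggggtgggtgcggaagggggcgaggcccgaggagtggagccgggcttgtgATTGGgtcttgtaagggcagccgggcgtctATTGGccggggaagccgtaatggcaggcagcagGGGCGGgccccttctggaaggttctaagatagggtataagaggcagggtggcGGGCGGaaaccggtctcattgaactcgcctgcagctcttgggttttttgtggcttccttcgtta
MSANTD4, STT3A, HSF2 and HSPA8 each held 2 CCAAT boxes, and AASDHPPT held 0. AASDHPPT was the only one of the 5 with a cAMP response element. It held 3 GC boxes, against 4 in MSANTD4, 2 in HSPA8, 1 in HSF2 and 0 in STT3A. A match describes the letters and is not a bound site.

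The 4 highest sites were narrow and lay in windows known for nuclear copies of mitochondrial DNA or poor mappability. The highest, chr1:569879-569981 on hg19, had 1273 and 1272 reads over its summit in the AI-10-49 libraries, against 1180 and 1128 in the DMSO libraries. It was first in every library and 103 bp wide. The next, chr5:134260214-134260303, was 90 bp wide and had 399 and 352 reads with AI-10-49 and 341 and 325 with DMSO. A neighbour at chr5:134259832-134259944 had 360 and 342 reads with AI-10-49 and 308 and 300 with DMSO. The fourth, chr8:100508098-100508177, was 80 bp wide and had 121 and 112 reads with AI-10-49 and 94 and 97 with DMSO. In these 4 sites both AI-10-49 libraries were above both DMSO libraries in reads, while their places in each library were between 1 and 5. Of the 1034 sites, 9 lay in such windows and 7 more lay near heterochromatin gaps. The windows were written down from general knowledge after the sites had been seen.

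Of the 6 sites next in place, 5 lay at gene starts, and all 6 were wider than the first 4. The site at chr8:110551710-110552086 holds the start of EBAG9, a gene first found as a target of the oestrogen receptor. It had 115 and 161 reads in the AI-10-49 libraries, against 104 and 86 in the DMSO libraries, in peaks 369 and 354 bp wide with AI-10-49 and 348 and 311 bp wide with DMSO. It held 2 summits in every library.

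On 11q, the sites at the starts of MSANTD4 and AASDHPPT were the next in place. MSANTD4, which encodes a protein with a Myb/SANT-like domain, had 105 and 146 reads with AI-10-49 and 114 and 83 with DMSO over chr11:105892941-105893350. AASDHPPT encodes the enzyme that loads phosphopantetheine onto carrier proteins, and it shares its site, chr11:105948003-105948458, with the start of KBTBD3. That site had 103 and 143 reads with AI-10-49 and 107 and 84 with DMSO. For both, the AI-10-49 and DMSO ranges overlapped.

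On chromosome 8, the site at chr8:25315889-25316471 lies at KCTD9 and CDCA2, the second of which encodes a protein that brings a phosphatase to chromosomes at the end of mitosis. It had 111 and 120 reads with AI-10-49 and 96 and 73 with DMSO. MED30, a subunit of the Mediator complex that links factors to RNA polymerase, had 82 and 83 reads with AI-10-49 and 83 and 59 with DMSO at chr8:118532738-118533082. The tenth site, chr8:70602309-70602608, was given no gene. It had 87 and 113 reads with AI-10-49 and 55 and 39 with DMSO, and was 300 and 290 bp wide with AI-10-49 against 201 and 188 bp with DMSO. Of the 10 highest sites it had the largest gap in place between the groups, at 7 and 6 with AI-10-49 and 20 and 34 with DMSO.

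**Figure D1:**
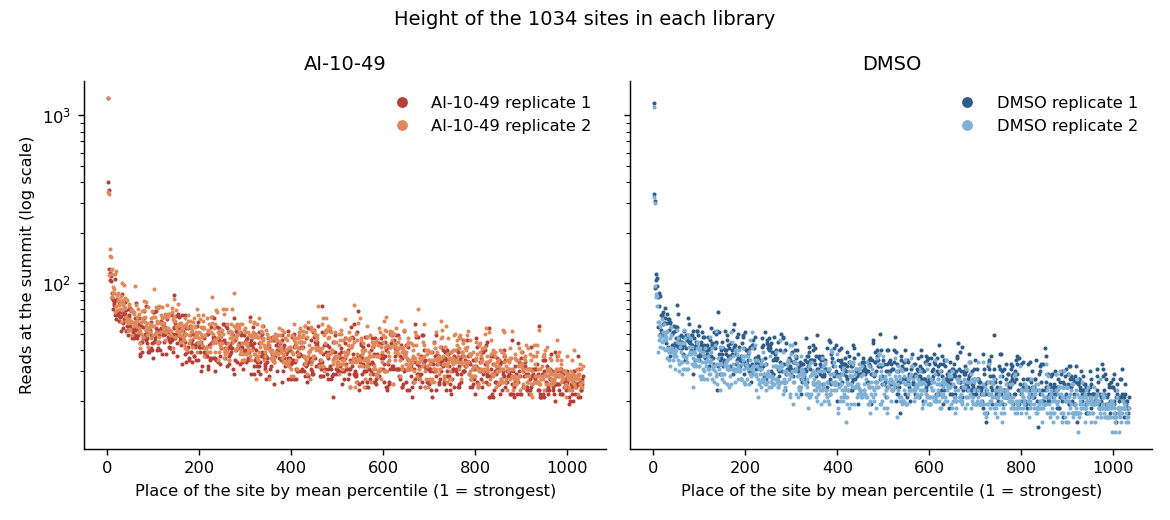
Reads over the summit of each of the 1034 sites (vertical, log scale) against the site's place by mean percentile over the 4 lists (horizontal, 1 is the strongest), with the AI-10-49 libraries in the left panel and the DMSO libraries in the right. A handful of sites stand far above the rest, at up to 1273 reads, and most of the sites form 1 gently falling band whose medians are 36 and 41 reads with AI-10-49 and 30 and 24 reads with DMSO.

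Heights chose the sites, so they are given as a description with no test. The median site had 36 and 41 reads over its summit in the AI-10-49 libraries (38.5 ± 3.54, SD, n = 2), against 30 and 24 in the DMSO libraries (27 ± 4.24, SD, n = 2). The other shared sites had medians of 9 and 10 reads with AI-10-49 and 8 and 7 with DMSO. The lowest number of reads at any of the sites, taken in each library separately, was 19 and 21 with AI-10-49 and 14 and 13 with DMSO. The authors' fold enrichment had a median of 20.2 and 21.4 over the sites with AI-10-49 and 18.5 and 16.3 with DMSO. The AI-10-49 libraries therefore gave more reads at these sites and also held more background, at 0.0965 and 0.108 reads per position against 0.0613 and 0.06 in the DMSO libraries. Set against that background, the median site was 373 and 381 times higher with AI-10-49 and 489 and 400 times higher with DMSO, which is the opposite order. Fold is not a plain ratio, since a fixed constant is added to the reads and to the local background. That background had a median of 0.775 and 0.918 at the sites with AI-10-49 and 0.642 and 0.534 with DMSO. The constant is therefore the larger part of the divisor, and fold is not free of depth. Depth moves with the treatment, and its part in any difference of reads or fold was not tested.

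Sites on either side of the threshold had overlapping numbers of reads. Just inside were chr11:111048125-111048271 with 22 and 32 reads in AI-10-49 libraries and 29 and 15 in DMSO libraries, chr2:136633930-136634251 with 25 and 26 against 18 and 15, and chr8:7255403-7255554 with 25 and 21 against 19 and 13. Just outside were chr19:46220544-46220979 with 26 and 36 reads in AI-10-49 libraries and 28 and 21 in DMSO libraries, chr15:45694367-45694656 with 24 and 27 against 16 and 18, and chr14:105957100-105957655 with 35 and 50 against 35 and 20. The last of these had more reads in every library than the first 3, since the rank is of a p-value that also takes in the local background. Many peaks of the top 5% did not belong to one of the 1034 sites. The share outside was 56.6% and 60.3% in the AI-10-49 lists and 68.3% and 67.4% in the DMSO lists. The lists held 47747 and 52121 autosomal peaks with AI-10-49 and 65614 and 63390 with DMSO. Their top 5% was 2388 and 2606 peaks with AI-10-49 and 3273 and 3170 with DMSO. The same 1034 sites are a smaller part of a longer list, so these shares do not compare the groups. The lowest −log10 p in the top 5% also differed, at 31.28 and 33.76 with AI-10-49 and 24.47 and 21.96 with DMSO.

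Width and number of summits were not used by the rule, although wide peaks can go with high ones. The highest peak at a site had a median width of 290.5 and 304 bp in the AI-10-49 libraries (297 ± 9.55, SD, n = 2), against 283 and 268 bp in the DMSO libraries (275.5 ± 10.6, SD, n = 2). Both AI-10-49 libraries were above both DMSO libraries, by 21.8 bp on average. The two-sided exact permutation test gave p = 0.333, the smallest that 2 against 2 libraries allow. The other shared sites had medians of 150 and 161 bp with AI-10-49 and 153 and 145 bp with DMSO, a difference of 6.5 bp.

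The strongest sites were about 130 bp wider than the other shared sites in every library. The difference was 140.5 and 143 bp with AI-10-49 and 130 and 123 bp with DMSO, a mean of 134 bp over the 4 libraries. It had the same sign in 4 of 4 libraries, and the two-sided exact sign-flip test over libraries gave p = 0.125, the smallest that 4 libraries allow. The sites were chosen for height in these same libraries, and wide peaks can go with high ones. The shared sign is therefore a description, and the test adds no support to it. Merged over libraries, the sites had a median width of 333.5 bp, with quartiles of 261 and 414 bp and a range of 80 to 877 bp, against a median of 209 bp for the other shared sites. Only 17 sites (1.64%) were narrower than 150 bp, against 18.6% of the others, and 95 (9.19%) were wider than 500 bp, against 1.73% of the others.

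A summit is a local maximum that the peak caller marks within a peak, and several of them describe several points of highest access in 1 open stretch. More than 1 summit was present in 388 and 383 sites in the AI-10-49 libraries, which is 37.5% and 37.0%, against 366 and 348 sites in the DMSO libraries, which is 35.4% and 33.7%. The group means were 37.3% ± 0.342 with AI-10-49 and 34.5% ± 1.23 with DMSO (SD, n = 2 each), a difference of 2.76 percentage points with an exact permutation p = 0.333. The other shared sites had more than 1 summit in 11.98% and 13.3% with AI-10-49 and 9.71% and 7.86% with DMSO, a difference of 3.85 points. The shares were thus higher in the AI-10-49 libraries for both kinds of site, as was the background. Several summits in all 4 libraries were found at 200 of the strongest sites (19.3%), against 2.68% of the others, and a single one in all 4 at 465 (45%), against 77.3% of the others.

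The position of the summit varied less between libraries at the strongest sites than at the others, with no test made. The highest summits of the 4 libraries spanned a median of 27 bp at the strongest sites (upper quartile 53 bp, maximum 397 bp) and 45 bp at the other shared sites (upper quartile 78 bp). They fell within 50 bp at 73.6% of the strongest sites and at 55.2% of the others. A summit is placed more exactly where there are more reads, and that part of the difference was not tested.

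**Figure D2:**
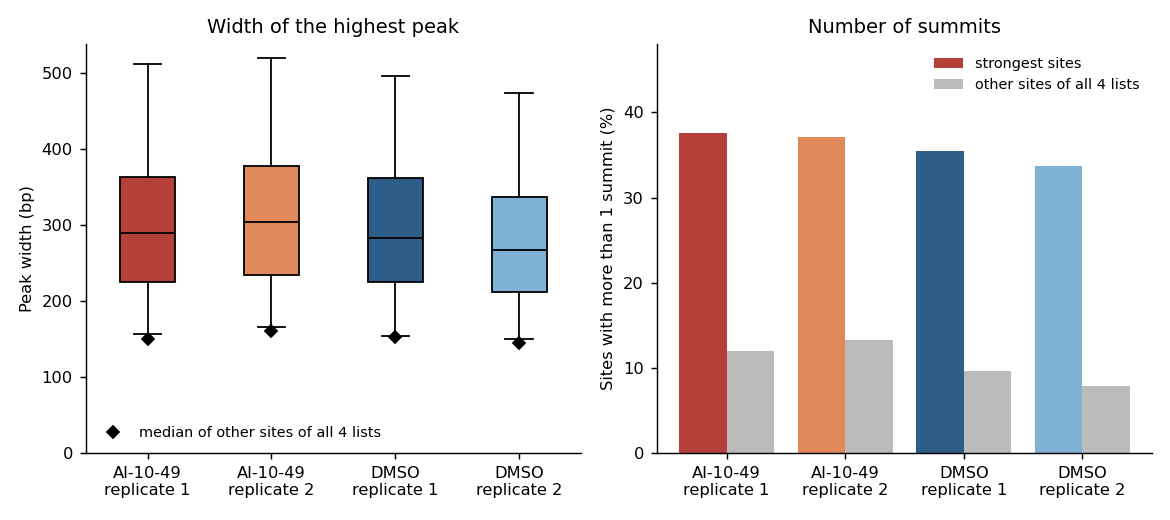
Left, width in bp of the highest peak at the strongest sites, by library, as boxes (quartiles and median) with whiskers at the 5th and 95th percentiles, and diamonds for the median of the other shared sites. Right, percent of sites with more than 1 summit, with the strongest sites in colour and the other shared sites in grey. In each library the median strongest site, at 268 to 304 bp, is well above the diamond, and the share with several summits is larger.

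The widest site was chr3:119813275-119814151, at 877 bp, whose edge lies at the start of GSK3B, a kinase of glycogen and Wnt signalling. Its peaks were 625 and 832 bp wide with AI-10-49 and 708 and 497 bp wide with DMSO, so the groups overlapped. It had 38 and 47 reads at its summit with AI-10-49 and 49 and 27 with DMSO. The medians of all the strongest sites were 36 and 41 with AI-10-49 and 30 and 24 with DMSO. Its places were 883 and 791 with AI-10-49 and 209 and 770 with DMSO. The site chr3:125634717-125635518, of 802 bp, held 4 and 7 summits with AI-10-49 and 5 and 4 with DMSO, the most in all. On chromosome 19, the site of 760 bp at CNOT3, a subunit of the deadenylase complex CCR4-NOT, held 5 and 5 summits with AI-10-49 and 3 and 4 with DMSO. A site of 682 bp at chr19:5904162-5904843 held 4 and 5 summits with AI-10-49 and 6 and 4 with DMSO. The widest sites were thus not the highest.

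At a scale of 10 kb most of the sites stood alone, but over longer distances they were not evenly spread. The densest stretch, chr11:94000001-95000000, held 8 of them among 35 shared sites. The median distance to the nearest other such site was 489 kb, and 16 of the 1034 had one within 10 kb. Any other shared site lay within 10 kb of 28.7% of them, against 33.9% of the other shared sites.

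Chromosome 11 held far more of the strongest sites than its share of shared sites. It had 150, which is 14.5% of them, while it holds 6.92% of the shared sites, so that 8.10% of its shared sites were among the strongest. Chromosome 8 was next with 103, which is 9.96% of the strongest against 6.68% of the shared sites, followed by chromosome 18 with 38 (5.25% of its shared sites) and chromosome 19 with 55 (5.03%). The lowest shares were on chromosome 22 with 4 sites (1.20%), chromosome 17 with 13 (1.71%) and chromosome 15 with 14 (1.74%). No test was made, since sites are not replicates and all 4 libraries come from 1 line.

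On chromosome 11 the excess lay on the long arm. There 131 of 1370 shared sites (9.56%) were among the strongest, against 19 of 482 (3.94%) on the short arm, which is close to the 3.87% of all autosomes. Between 70 and 130 Mb, 118 of 1031 (11.4%) were, while the rest of the chromosome had 32 of 821 (3.90%). These bounds enclose the stretches where the share was high in the same counts, so the contrast only describes them. On either side, the share was 3.79% from 60 to 70 Mb and 4.35% from 130 to 140 Mb. Without chromosome 11, the share over the other autosomes was 3.55%. Among the 175 sites at or above the 99th percentile in all 4 lists, 40 (22.9%) lay on chromosome 11 and 30 (17.1%) on chromosome 8.

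The background around other, weaker sites was also higher on 11q than on 11p. The local background of the other shared sites on 11q had a median of 0.347 and 0.391 reads with AI-10-49 and 0.253 and 0.248 with DMSO. Between 70 and 130 Mb it was 0.331 and 0.371 with AI-10-49 and 0.253 and 0.244 with DMSO, no higher than over 11q as a whole. On 11p it was 0.231 and 0.267 with AI-10-49 and 0.182 and 0.169 with DMSO, a little under the median chromosome. On chromosome 8 it was 0.263 and 0.303 with AI-10-49 and 0.214 and 0.205 with DMSO. Chromosome 19 had the highest values of any whole chromosome, at 0.380 and 0.449 with AI-10-49 and 0.259 and 0.235 with DMSO, and chromosome 22 had high values with AI-10-49 but few of the strongest sites. The number of copies of each chromosome arm was not measured here, so more copies and more open chromatin per copy cannot be told apart, and the part of either was not tested.

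**Figure D3:**
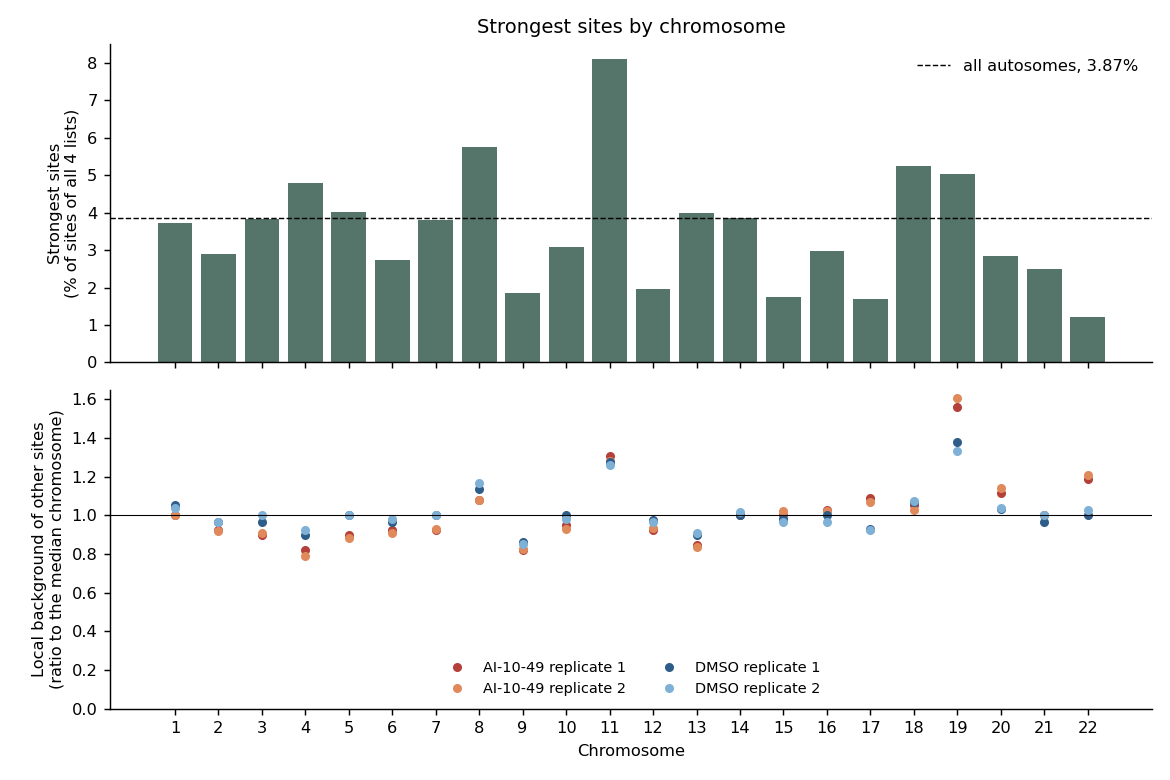
Top, strongest sites as a percent of the sites found in all 4 lists, by chromosome, with a dashed line at the 3.87% of all autosomes. Bottom, median local background of the other shared sites in each library as a ratio to that library's median chromosome. Chromosome 11 is the highest in the top panel, at 8.10%, and stands above 1 in all 4 libraries in the bottom panel, where chromosome 19 is higher.

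Genes at the highest sites were looked up among the top 200 by mean percentile, from approximate hg19 starts recalled after the sites had been seen. A known start lay within 1 kb of 129 of them, and 71 had none. The 129 carried 148 genes, and 19 sites had several. By these approximate positions, 126 of the genes started inside the site. Starts were not looked up in this way for the other shared sites. The 129 thus have no share beside them and do not show an excess of gene starts. The sites with a known start were wider, with a median of 370 bp, than the 71 without one, with 306 bp. The 10 sites of the 200 that lay in the known windows or near heterochromatin gaps were all among the 71; so were the 7 narrower than 150 bp. A site with no recalled start may still be a promoter.

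A few of the 148 genes are named here after their values were seen, and no theme is drawn from them. STT3A, the catalytic subunit of the oligosaccharyltransferase that puts sugars on new proteins, had 83 and 122 reads with AI-10-49 and 85 and 59 with DMSO. PCF11, a factor that ends transcripts, had 80 and 118 reads with AI-10-49 and 65 and 61 with DMSO, in a peak of 540 and 580 bp with AI-10-49 and 558 and 455 bp with DMSO. HSF2, a heat shock transcription factor, had 65 and 67 reads with AI-10-49 and 65 and 48 with DMSO. The groups overlapped or touched for STT3A and HSF2 and did not for PCF11.

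MSMO1, a sterol methyl oxidase, had 77 and 69 reads with AI-10-49 and 61 and 41 with DMSO. INTS4, a subunit of the Integrator complex, had 80 and 88 reads with AI-10-49 and 62 and 40 with DMSO. TERF1, which binds telomere repeats, had 54 and 79 reads with AI-10-49 and 61 and 39 with DMSO, with overlap. MCM3, a subunit of the helicase that unwinds DNA for replication, had 56 and 60 with AI-10-49 and 42 and 40 with DMSO. Since the AI-10-49 libraries gave more reads at these sites in general, higher counts at single genes are not read as a response.

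Few genes on the lists of well-known genes had one of the strongest sites near their start. Of 198 genes in 10 lists, 168 had an accessible region of any list within 5 kb, 127 had one in all 4 lists and 3 had one of the strongest, while 11 lay within 5 Mb of a centromere and were not looked at. Those 3 are 2.36% of the 127 genes, beside the 3.87% of all shared sites. The first is a share of genes and the second a share of sites, so they do not compare directly. HSPA8, which encodes the heat shock protein that cells make at all times, had 66 and 98 reads with AI-10-49 and 59 and 47 with DMSO, in a site of 712 bp. CTCF, the insulator protein, had 31 and 40 reads with AI-10-49 and 27 and 24 with DMSO. CDK1, the kinase that starts mitosis, had 27 and 36 with AI-10-49 and 30 and 22 with DMSO. CDK1 overlapped between the groups, and the other 2 were higher with AI-10-49 in both libraries, as was the median site.

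By list, a region in all 4 lists was found at 28 of 34 genes of general cell upkeep, 20 of 25 of cell cycle and apoptosis, 18 of 22 chromatin and RNA factors, and 18 of 22 immediate early and stress genes. In the blood lists it was found at 18 of 33 myeloid and stem cell transcription factors, 10 of 18 blood surface and signalling genes, 4 of 10 granule proteins, 5 of 10 genes of other blood lineages and 4 of 5 HLA genes. Of 19 genes of tissues other than blood, 2 had one, APOA1 and GFAP. The best region of a listed gene had a median mean percentile of 74.3, beside 68.5 over all shared sites. The second value takes every site and not the best of each gene, so the values do not compare directly. Close to the cut were CCNB1, a mitotic cyclin, with 37 and 27 reads with AI-10-49 and 21 and 20 with DMSO, and FLI1, an ETS factor of blood cells, with 29 and 26 with AI-10-49 and 35 and 25 with DMSO. These 2 were named after their values were seen.

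**Figure D4:**
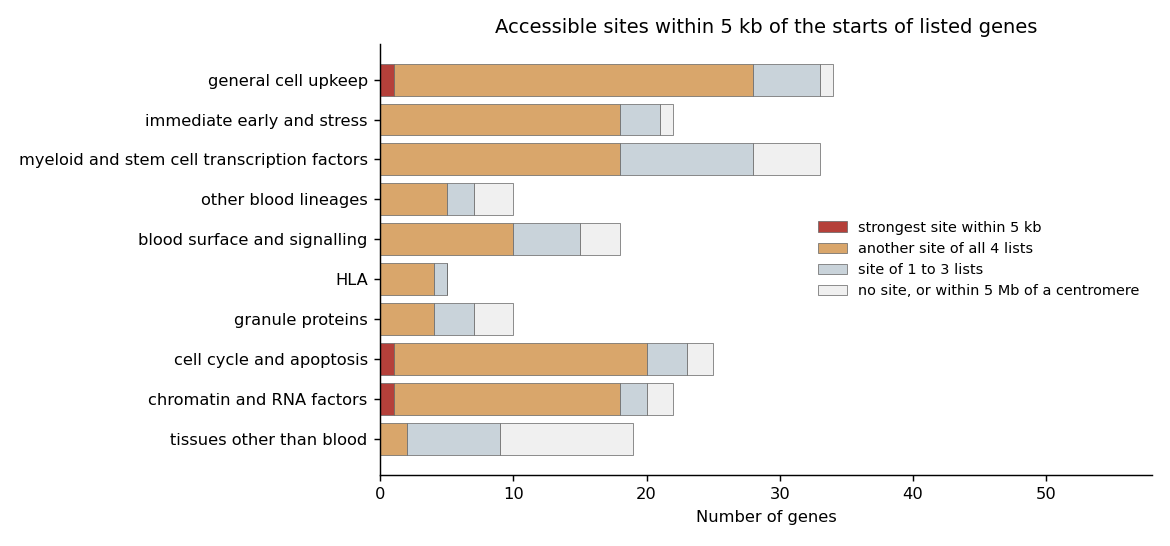
Number of genes in each list, divided by the best accessible site within 5 kb of the start: one of the strongest sites, another site found in all 4 lists, a site found in 1 to 3 lists, or none (or a start within 5 Mb of a centromere). Red segments, the strongest sites, cover 1 gene each in 3 lists, HSPA8, CDK1 and CTCF.

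Of the 148 genes at the top 200 sites, 117 had a promoter in the RefSeq table, and the printed sequences are 5 of these. The CCAAT box, the sequence bound by the factor NF-Y, was in 81 of the 117 (69.2%). It was in 41.6% of the promoters of 101 listed genes that had a shared site but none of the strongest, in 30.1% of 9200 CpG-rich promoters and in 35.7% of all 27305 promoters in the table. No test was made, since the genes were found by recall and promoters are not replicates. Genes that share a site are counted separately, so where their promoters overlap the same box can count for both. How often this happened was not counted.

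The other motifs stood above some comparison promoters and below others. The GC box, bound by SP factors, was in 89 (76.1%) of the promoters at the strongest sites, against 71.3% of those of the listed genes, 85.2% of the CpG-rich and 44.6% of all. The ETS core was in 30 (25.6%), against 23.8%, 29.8% and 17.6%. The TATA box (TATAAA or TTTATA) was in 4 (3.42%), against 16.8%, 2.92% and 11.95%. The RUNX site (TGTGGT or ACCACA), which the partner of CBFβ binds, was in 8 (6.84%), against 9.90%, 6.33% and 13.1%. The cAMP response element was in 4 (3.42%), against 4.95%, 3.66% and 1.98%. Motifs were counted separately on both strands and may overlap, and no match says nothing about a factor outside the window.

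The promoters at the strongest sites had a median GC content of 62.7% and 24 CpG dinucleotides, against 64.7% and 28 for the listed genes and 58.3% and 14 for all promoters. A second gene started on the opposite strand within 1 kb for 52 of the 117 (44.4%), against 17.8% of the listed genes, 41.1% of the CpG-rich promoters and 23.2% of all. Paired starts at 1 site count once for each gene here.

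**Figure D5:**
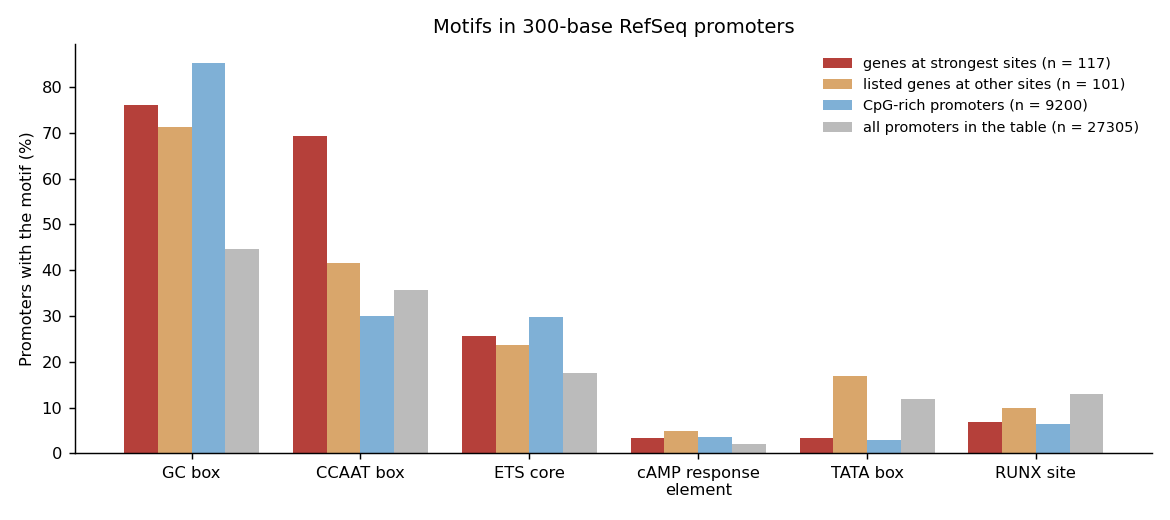
Percent of RefSeq promoters of 300 bases that hold each motif on either strand, for genes at the strongest sites, listed genes at other shared sites, CpG-rich promoters and all promoters. The bar of the CCAAT box is 69.2% for genes at the strongest sites and 41.6%, 30.1% and 35.7% for the other sets.

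The order of the sites differed between libraries. The Spearman correlation of ranks over the 1034 sites was 0.645 between the AI-10-49 libraries and 0.525 between the DMSO libraries. Across treatments it was 0.407 to 0.491. These values are a description over sites that share their library and depth. The rule used these same heights and kept only the top of each list. That narrows their range and can lower the coefficients, so no effect of treatment is read from them. Of sites in the top 100 of any library, 225 in number, 28 were in the top 100 of all 4. A site's place varied by a median of 411.5 places between its best and its worst library. The lowest percentile of a site fell in AI-10-49 replicate 1 for 326 sites and replicate 2 for 232, against DMSO replicate 1 for 192 and replicate 2 for 284, so no single library set the choice.

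With ranks taken among all shared sites, both AI-10-49 ranks were above both DMSO ranks at 257 of the strongest sites (24.9%), beside 19.6% of all shared sites. Both were below at 177 (17.1%), beside 18.8%. Since the rule used these heights, nothing is read from the counts. Ranked among the 1034 alone, the numbers were 206 above and 219 below.

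The largest gain in place with AI-10-49 was at chr11:85195011-85195223, a site of 213 bp with no gene assigned. It had 57 and 74 reads with AI-10-49 and 17 and 20 with DMSO, and stood at places 49 and 26 with AI-10-49 and 985 and 687 with DMSO. The next was the site at TMEM160 on chromosome 19, chr19:47551854-47552192, with 49 and 51 reads with AI-10-49 and 20 and 19 with DMSO. The site at AGFG2, chr7:100136418-100136885, had 57 and 51 reads with AI-10-49 and 24 and 20 with DMSO. At all 3, both AI-10-49 libraries were at more than the highest DMSO library in reads, and places did not overlap, which the rule for naming them required.

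The largest loss was at chr11:95976427-95976637, of 211 bp, with 24 and 32 reads with AI-10-49 and 38 and 32 with DMSO and places of 940 and 731 with AI-10-49 and 142 and 125 with DMSO. The site at ZNF670, a zinc finger gene, at chr1:247241978-247242292, had 25 and 27 reads with AI-10-49 and 35 and 27 with DMSO. The site chr8:131058044-131058229 had 27 and 35 reads with AI-10-49 and 35 and 35 with DMSO. In reads the groups touched or overlapped at these 3 sites, but the AI-10-49 libraries gave more reads at the sites in general. In the authors' fold enrichment the groups did not overlap: the first had 17.2 and 21.2 with AI-10-49 and 24.8 and 22.7 with DMSO, the second 18.08 and 18.02 against 23.8 and 19.7, and the third 15.9 and 19.3 against 21.4 and 20.4. Fold comes from the same reads and local background as the −log10 p that was ranked. The rule for naming these sites required places that did not overlap, so the separation in fold is not further evidence of a loss. These 6 sites were picked as the extremes of the ranks and have no test.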

How the data were processed

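ATAC-seq was done on ME-1 cells in 4 libraries, 2 with AI-10-49 and 2 with DMSO, with 1 deposited peak list per library on hg19. Tools in the submitters' processing notes are MACS2 2.1.0, Picard 1.96, deepTools, Bowtie2 and cutadapt 1.3, with no settings. In the deposited narrowPeak lists, the authors' −log10 p-value (column 8), −log10 q-value (column 9) and fold enrichment (column 7) are per peak and called per library. Fold was taken as reads plus 1 over local background plus 1. The score (column 5) and the summit offset are deposited with them. Library depth is not given in the sources used here.

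Rows with the same coordinates were taken as 1 peak with several summits. Percentiles were taken within each list, peaks that shared 1 bp or more were merged, and the 1034 regions at or above the 95th percentile in all 4 lists were kept. Reads over a summit and the local background were solved from fold and −log10 p, and gave whole reads for 100% of peaks within a tolerance of 0.001, widened in proportion where −log10 p was above 100. The steps were tested on simulated data. Intervals are not given, since reads may be PCR copies and heights chose the sites.

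The members, the gene lists and the tests were chosen with earlier results of these data known. Named regions were the 10 with the best mean percentile, the 3 widest, the 3 with most summits, the 3 largest gains and losses in rank with no overlap between groups, and 3 on each side of the cut. Named genes were, in each list, up to 4 with a member within 5 kb of the start. Gene starts are approximate hg19 positions from general knowledge, and the starts at the top 200 sites and at named regions, and the windows of known artefact, were written after the sites were seen. All 117 genes found in the RefSeq table (GRCh38.p14) had the same chromosome there, and 86 of 86 neighbouring pairs had the same order. The recalled starts had also been compared with that table to catch errors of memory, 1 was dropped, and no coordinate was converted. CpG-rich promoters are those with at least the median CpG count of the genes at the strongest sites. Tests were two-sided exact permutation tests over libraries. Python 3.11.15, pandas 2.3.3, numpy 2.4.6, scipy 1.17.1 and matplotlib 3.10.9 were used. Alternatives were the cut, the ranking column, a q-value threshold, equal list lengths, summit distance, duplicate rows, the windows, chromosome X, gene distance, the replicate number as a block and leaving out each library. A few items are not reported here.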

Additional observations from a re-analysis of the deposited data

How the results depend on the processing

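The number of sites moved most with the cut, to 2324 at the 90th percentile, 175 at the 99th and 517 with only peaks of −log10 q of at least 5. It was between 839 and 1137 under the other planned settings with all 4 libraries, and 1143 to 1277 with 1 library left out. The width difference between AI-10-49 and DMSO was 11.5 to 29 bp with 1 library left out, the difference in the share with several summits 2.51 to 3.76 points, and the width difference from the other shared sites 127 to 145 bp. At the 99th percentile, the width difference between AI-10-49 and DMSO was 11 bp (exact permutation p = 0.333), and the summit difference was 1.43 points with p = 1 by the same exact test, so the groups no longer stood apart in summits. No difference changed its direction under any setting run, and the design is too small for a test to pass. Leaving out sites narrower than 150 bp, chosen after seeing the data, gave 1017 sites and 136 bp. With summits within 150 bp in place of overlap, no value was computed for the difference from other sites. The share on chromosome 11 was 11.9% at the 90th percentile and 22.9% at the 99th. The 3 listed genes were also 3 within 2 kb and within 10 kb.

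The replicate numbers are shared by the groups as numbers only. With the replicate number as a block, the width difference was 21.8 bp and the summit difference 2.76 points, each with an exact sign-flip p = 0.5, the smallest that 2 pairs allow. Deviations of same-numbered libraries had a correlation of -0.001, so the block was not used.

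Depth limits the order of sites near the cut, where the 3 sites just inside had 13 to 32 reads. With no library totals, read numbers compare libraries only through the background.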

Other observations

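Chromosome X was not part of the rule. Taken with the autosomes, it held 10 sites that passed the same cut, of 625 regions found in all 4 lists (1.60%), beside 3.87% over the autosomes. Their median width was 367 bp. The strongest was chrX:108297615-108297830, of 216 bp.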
